A study of Homo sapiens with 6 samples.

Results

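The E2F and DP factors were examined as 10 genes, E2F1 to E2F8, TFDP1 and TFDP2, in a map of open chromatin of EndoC-βH3 cells. Their regions were chosen by position alone. A promoter region overlapped the 2 kb on either side of a GENCODE protein-coding start site of a member. A distal region was any other region whose middle had its nearest protein-coding start site at a member, at most 100 kb away. Of the 108542 regions of the table, 14 of 20094 promoter regions and 22 of 88448 distal regions belonged to the family, 36 in all. The farthest promoter region to be included had its edge 1557 bp from a start site of TFDP2, and the nearest one left to the distal group had its edge 3736 bp from a start site of E2F7. At the outer limit, the last region inside lay 89053 bp from E2F3 and the first outside lay 113503 bp from E2F7, where the log2 fold change was 0.57 (SE 0.742, adjusted p = 0.563).

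E2F proteins bind DNA as pairs with a DP protein, encoded by TFDP1 or TFDP2, and set the timing of genes for DNA replication and cell division. E2F1, E2F2 and E2F3 are known as activators, E2F4, E2F5 and E2F6 as repressors, and E2F7 and E2F8 as atypical repressors that bind without a DP partner. The retinoblastoma protein Rb and its relatives hold E2F factors in check until cyclin-dependent kinases release them, and the loss of E2F activity through Rb is a known part of the exit from the cell cycle in senescence. SV40 large T antigen, which these cells carry, binds and blocks Rb.

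EndoC-βH3 is a human pancreatic beta cell line that divides because it expresses hTERT and SV40 large T antigen, both of which can be excised by a tamoxifen-inducible CreER. The 3 non-senescent libraries came from control cells that kept both genes, and the 3 senescent libraries came from cells treated with 4-hydroxytamoxifen for 3 weeks, with 100000 cells used for each library. Tamoxifen treatment, excision of the transgenes and senescence thus came together and cannot be told apart, and all libraries are of 1 cell line that is labelled wild type. Whether the libraries of a group came from separate cultures is not stated. Promoter regions were found at 14 of 14 beta cell markers, with a median mean signal of 1307 normalised reads per kb. At markers of other pancreatic, blood and stromal cell types, 13 of 18 had such a region, with a median of 171 and a highest value of 1298 at CPA1, an acinar gene, while the defining genes PRSS1, CFTR, PTPRC, CDH5 and PDGFRB had none.

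For each region the authors' deposited table holds the mean of the normalised read counts over all 6 libraries, the log2 fold change between the groups, its standard error (SE) and a p-value adjusted over all regions. It holds no value of a single library, so levels per group, the overlap of groups and the depth of each library are not given here. Fold changes are written as senescent over non-senescent, intervals are 95% Wald intervals, and a region was called lower or higher at an adjusted p under 0.05 with a fold change over 1.5, which is 0.585 on the log2 scale. The table does not name which group is the numerator. It was taken to be the senescent one, and every direction rests on that. In bulk cells, a smaller share of cells with an open region and a smaller opening in each cell cannot be told apart.

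Promoter accessibility was lower in senescent cells at E2F1, E2F2, E2F7 and E2F8, which are members of the activator and atypical groups, with fold changes between 0.495 and 0.601. At E2F1 the lower region lay inside the gene, from 507 bp after the start, and the region over the start itself was not called. In all, 4 of the 14 promoter regions of the family were called lower, against 9.04% of all promoter regions. At the level of genes, 4 of 10 members had at least 1 lower promoter region, against 11.0% of 15493 genes. No promoter region of a member was called higher by the DESeq2 test, 0 of 14 against 3.56% of all promoter regions. At an unadjusted p under 0.05, 1 of the 14 was higher, as were 2444 of all 20094 promoter regions. By the adjusted p alone, 7 were lower, against 34.7% of all promoter regions. The median log2 fold change was -0.28 over the 14 regions and -0.13 over all promoter regions, and 12 of the 14 values were negative, as were 69.3% of the values over all promoter regions.

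**Figure D1:**
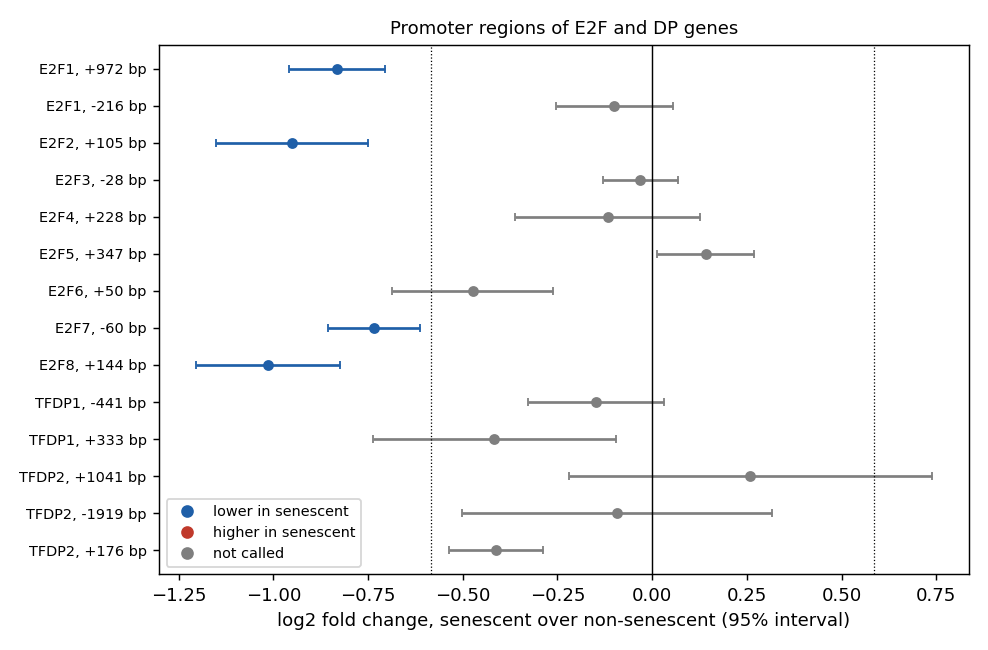
Log2 fold change (x axis, senescent over non-senescent) of the 14 promoter regions of E2F and DP genes, each named by its gene and the distance of its middle from the nearest start site in bp. Bars are 95% Wald intervals, dotted lines mark a fold change of 1.5 and blue marks the 4 regions called lower, which lie between -1.01 and -0.73.

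Sequences upstream of the start site were searched for exact matches to a pair of E2F sites, and other forms of the site were not searched. Promoters of 300 bases, 250 before and 50 after the RefSeq start, were available for 8 members and were identical to the genome at their coordinates. Searched on both strands, the E2F sites TTTCGCGC or TTTGGCGC occurred in 3 of 8 member promoters, E2F1, E2F2 and TFDP1, and in 1.67% of 15843 protein-coding promoters. The 250 bases before the start are printed below 5′ to 3′ on the strand of the gene, in the build GRCh38.p14, with an E2F site in capitals. The first 3 hold a site, at -20 to -13 in E2F1, at -42 to -35 in E2F2 and, on the other strand, at -120 to -113 in TFDP1. E2F7 and E2F3 are shown as a called and an uncalled promoter without an exact match.

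E2F1 promoter, chr20:33686386-33686635, minus strand: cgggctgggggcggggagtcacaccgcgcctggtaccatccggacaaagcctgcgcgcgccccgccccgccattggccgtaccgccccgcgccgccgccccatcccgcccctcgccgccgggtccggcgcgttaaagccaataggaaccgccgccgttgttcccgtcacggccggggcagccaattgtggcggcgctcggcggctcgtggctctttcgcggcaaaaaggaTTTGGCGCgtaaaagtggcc

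E2F2 promoter, chr1:23531234-23531483, minus strand: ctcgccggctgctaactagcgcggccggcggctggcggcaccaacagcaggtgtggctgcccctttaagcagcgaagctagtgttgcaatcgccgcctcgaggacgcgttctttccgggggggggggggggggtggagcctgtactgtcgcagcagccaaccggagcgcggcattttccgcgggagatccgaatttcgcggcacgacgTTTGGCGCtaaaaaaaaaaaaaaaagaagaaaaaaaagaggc

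TFDP1 promoter, chr13:113584503-113584752, plus strand: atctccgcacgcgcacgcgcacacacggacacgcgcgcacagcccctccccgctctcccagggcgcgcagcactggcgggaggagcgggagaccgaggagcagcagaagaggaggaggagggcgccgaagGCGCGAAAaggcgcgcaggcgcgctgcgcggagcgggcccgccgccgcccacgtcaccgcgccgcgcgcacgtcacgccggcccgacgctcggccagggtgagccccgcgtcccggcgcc

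E2F7 promoter, chr12:77065570-77065819, minus strand: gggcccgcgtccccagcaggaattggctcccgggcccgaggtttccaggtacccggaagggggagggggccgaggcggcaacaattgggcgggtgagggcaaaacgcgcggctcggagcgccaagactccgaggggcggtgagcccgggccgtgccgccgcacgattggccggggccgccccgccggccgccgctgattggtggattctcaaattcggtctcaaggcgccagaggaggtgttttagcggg

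E2F3 promoter, chr6:20401629-20401878, plus strand: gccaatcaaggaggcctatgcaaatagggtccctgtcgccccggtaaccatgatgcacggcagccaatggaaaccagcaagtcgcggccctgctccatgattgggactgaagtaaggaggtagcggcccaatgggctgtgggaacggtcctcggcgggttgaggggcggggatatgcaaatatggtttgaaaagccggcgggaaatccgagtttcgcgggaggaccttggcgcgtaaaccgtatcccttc

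E2F2 held a site and was called lower, E2F7 held neither of these forms and was called lower, and TFDP1 held a site and was not called. In E2F1 the site lay in the region over the start, which was not called. Promoter sequences of this kind were not available for E2F5 and E2F8. In the middle 300 bases of the promoter regions, either site was found in 1 of the 14 regions of the family, that of E2F2, against 1.11% of all promoter regions. The E2F8 window held neither form, but its middle lay 144 bp inside the gene, so most sequence before the start was not searched. Of the other motifs, CCAAT, the box bound by NF-Y, was found in E2F1, E2F3, E2F7 and TFDP2, 4 of 8 against 36.36% of all promoters. GGGCGG, a site of SP factors, was found in 7 of 8 against 58.5%. TTTGAA, the core of the cell cycle homology region (CHR) bound by the MuvB complexes, was found in E2F3 alone, 1 of 8 against 12.14%, at -65 to -60. A match only states that the letters are present.

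Among the activators, E2F1, which drives entry into DNA replication, had a pair of promoter regions with different values. The region over its start site, chr20:33686333-33686869, had the highest signal per length of the family, with 2594 normalised reads per kb, above 98.6% of promoter regions. Its log2 fold change was -0.10 (SE 0.079, interval -0.255 to 0.056, adjusted p = 0.319). The other region, chr20:33684948-33685878, lay in an intron, 507 to 1437 bp into the gene, with 1414 normalised reads per kb. It fell by 0.83 on the log2 scale (SE 0.065, interval -0.958 to -0.705, adjusted p = 1.82e-35), to a fold change of 0.562. The intervals of this pair did not overlap, though the difference itself was not tested.

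The composition of the regions also differed. The intronic region had an observed to expected CpG ratio of 0.337, against 0.926 for the region over the start, while their GC content was 62.1% and 67.6%. The middle 300 bases of the intronic region held no E2F site. They are printed 5′ to 3′ on the strand of the gene, because they carry the only call at E2F1, and the capitals mark the CHR core TTTGAA. That core was present in the same window of 3 of the 14 promoter regions of the family and 8.64% of all promoter regions.

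E2F1 intron region, chr20:33685264-33685563, minus strand: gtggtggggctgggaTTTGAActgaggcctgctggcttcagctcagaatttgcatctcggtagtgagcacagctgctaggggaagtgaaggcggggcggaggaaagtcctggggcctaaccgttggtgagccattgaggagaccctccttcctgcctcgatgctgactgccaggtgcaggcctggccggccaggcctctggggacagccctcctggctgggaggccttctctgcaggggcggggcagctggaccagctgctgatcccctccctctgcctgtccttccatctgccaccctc

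E2F2, a further activator of replication genes, had 1 promoter region, chr1:23530511-23531746, over its first exon. Its mean signal was 407 normalised reads, or 330 per kb, and it fell by 0.95 on the log2 scale (SE 0.103, interval -1.152 to -0.749, adjusted p = 1.41e-18). The fold change was 0.517. The TTTGGCGC of the printed E2F2 promoter lay inside this region.

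E2F3, the third activator, had the highest mean signal of the family, 2440 normalised reads, in the region chr6:20401206-20402496 over its upstream start site. Its log2 fold change was -0.03 (SE 0.051, interval -0.131 to 0.068, adjusted p = 0.645). This interval lay wholly above those of the called regions of E2F1, E2F2, E2F7 and E2F8. The gene has 2 annotated protein-coding start sites, and the downstream one had no region of the table on it. The promoter region also touched a noncoding gene.

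The repressors had no call at their promoters. E2F4, which with p130 and p107 silences cell cycle genes in resting cells, had a low mean signal of 286 normalised reads at chr16:67191832-67192934, a region shared with the promoter of EXOC3L1. Its log2 fold change was -0.12 (SE 0.125, interval -0.362 to 0.127, adjusted p = 0.472). E2F5, a close relative of E2F4, had a positive value of 0.14 at chr8:85176759-85178385 (SE 0.065, interval 0.013 to 0.27, adjusted p = 0.0678). That region also touched E2F5-DT and a further noncoding gene. E2F6, which lacks an Rb-binding part and works with Polycomb proteins, was at -0.47 at chr2:11465434-11466789 (SE 0.108, adjusted p = 6.93e-05). It passed the adjusted p but not the fold limit, with a fold change of 0.720. The E2F5 interval lay above that of E2F6, while that of E2F4 overlapped both.

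The atypical members E2F7 and E2F8, which shut off E2F target genes late in the cycle, were both called lower. The E2F7 region chr12:77065086-77066173 lay over its first exon, with a mean signal of 1380 normalised reads. It fell by 0.73 on the log2 scale (SE 0.062, interval -0.855 to -0.614, adjusted p = 1.73e-30). The E2F8 region chr11:19240551-19242358 had the lowest log2 fold change among the promoter regions of the family, at -1.01 (SE 0.097, interval -1.204 to -0.823, adjusted p = 1.83e-23), or a fold change of 0.495, and a mean signal of 615. It also touched CSRP3-AS1, a noncoding gene, and its signal cannot be assigned to either gene. The intervals of E2F7 and E2F8 overlapped.

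Neither DP gene had a call at a promoter. TFDP1, which encodes the DP partner of most E2F pairs in dividing cells, had its stronger region at chr13:113583843-113584781, with a mean signal of 482 normalised reads and a value of -0.15 on the log2 scale (SE 0.092, adjusted p = 0.188). The printed TFDP1 site lay inside this region. A weaker region at chr13:113585267-113586252, with a mean signal of 143, was at -0.42 (SE 0.164, adjusted p = 0.0289). TFDP2, the gene of the other DP partner, has 16 annotated start sites, of which 4 had a region on them. Its main region, chr3:142148737-142149852, had a mean signal of 1496 and was at -0.41 (SE 0.064, adjusted p = 1.41e-09), with a fold change of 0.752, short of the limit. The other TFDP2 promoter regions were weak, with mean signals of 65.0 and 84.6, and neither passed the adjusted p.

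**Figure D2:**
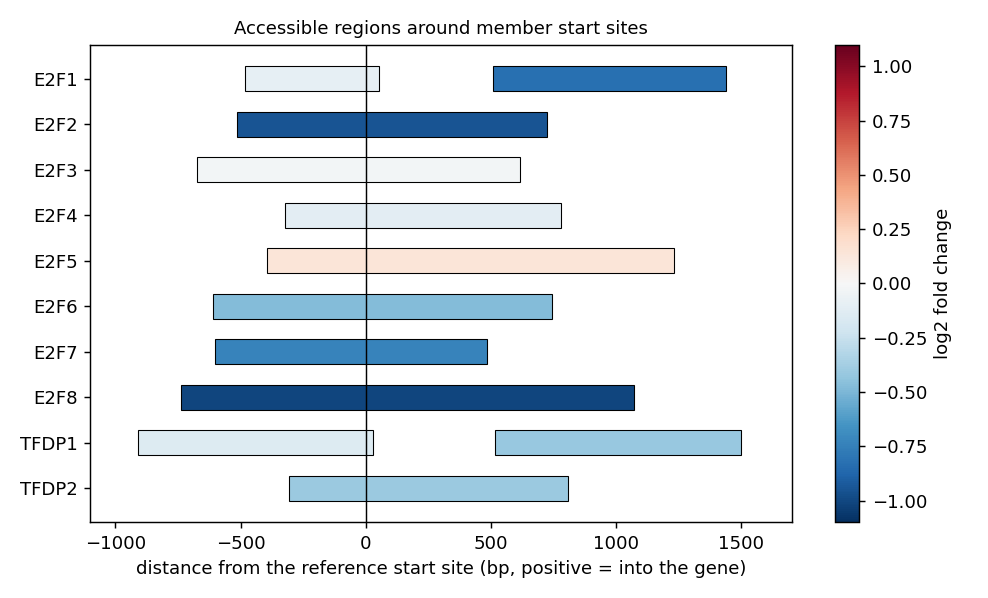
Position of the promoter regions (x axis, bp from the most upstream start site of each gene that a region covers, positive into the gene), coloured by log2 fold change. The E2F1 region over the start is at -0.10 and the one 507 to 1437 bp into the gene at -0.83, and 2 TFDP2 regions at other start sites lie beyond the axis.

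In signal, the called promoters did not form one end of the family. Per length, E2F1 and E2F7 had 1414 and 1268 normalised reads per kb in their called regions and E2F8 and E2F2 had 340 and 330, against a median of 507 over all promoter regions. The uncalled main regions of E2F3, TFDP2, E2F5, TFDP1, E2F6 and E2F4 had 1890, 1340, 684, 514, 279 and 260. Fold changes moved with signal and composition over the whole table. The running median of the log2 fold change was between -0.133 and -0.108 at the mean signal of the 4 called regions, and between -0.152 and -0.136 at their GC content. Their part in the calls was not tested, and with either trend taken off the 4 regions kept their calls.

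**Figure D3:**
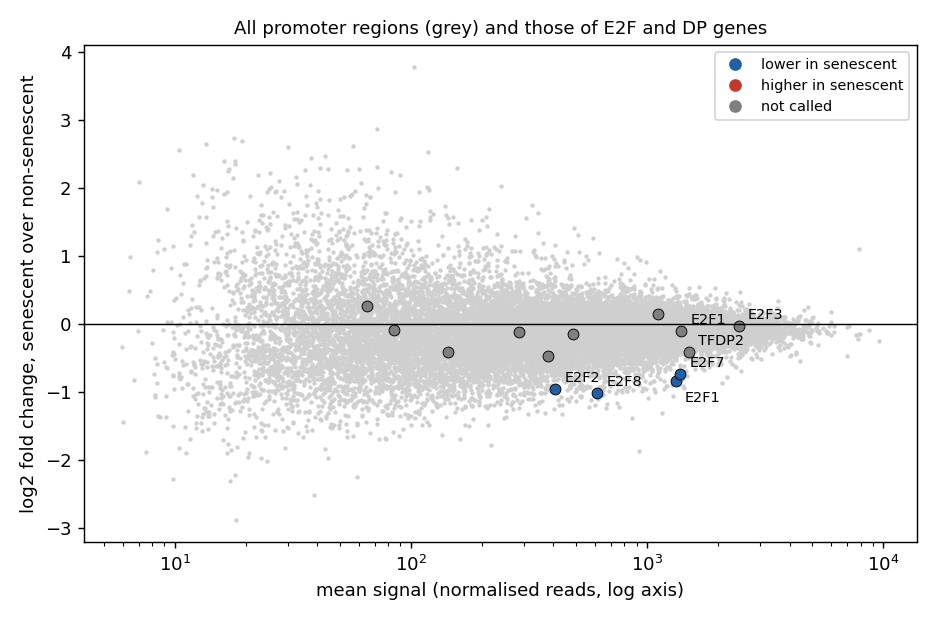
Log2 fold change (y axis) against mean signal (x axis, normalised reads over all 6 libraries, log scale) for all 20094 promoter regions in grey and the 14 of E2F and DP genes in colour or dark grey. The called regions of E2F2, E2F8, E2F1 and E2F7 have mean signals of 407, 615, 1316 and 1380.

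Away from the promoters, the family had calls in both directions, with regions at E2F3, E2F5, E2F7 and TFDP2 higher and regions at E2F2 and E2F7 lower. Of the 22 distal regions, 7 were called higher, against 18.1% of all distal regions, and 2 lower, against 10.6%. By the adjusted p alone 5 were lower, against 18.3%, and 8 were higher, as were 20664 of all 88448 distal regions. With the fold limit of 1.5 put into the Wald test, 2 of the 9 regions called higher or lower kept their call, the rises at E2F3 and E2F5. The median log2 fold change was 0.07 over the 22 regions and 0.08 over all distal regions. The nearest start site gives no link between a distal region and the use of a gene. When the start sites of all genes were used, noncoding ones included, 15 distal regions belonged to the family, 6 higher and 2 lower. The shares over all distal regions were not computed for this assignment or for the Wald test with the fold limit. Those counts can thus not be set against the 18.1% and 10.6% above. E2F4 and E2F8 had no distal region under the rule.

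The rise with the lowest adjusted p lay in an intron of E2F5, at chr8:85191677-85192150, with a mean signal of 131 normalised reads. It rose by 2.09 on the log2 scale (SE 0.186, adjusted p = 3.47e-27), a fold change of 4.25 with an interval of 3.30 to 5.47, while the E2F5 promoter was not called. A second intronic region of E2F5, with a mean signal of 251, was at 0.36 (SE 0.130, adjusted p = 0.0155) and short of the fold limit.

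A region 89053 bp upstream of E2F3, outside protein-coding genes but touching a noncoding gene, chr6:20312726-20312926, rose by 2.23 on the log2 scale (SE 0.418, adjusted p = 8.48e-07). With a mean signal of 25.6 its fold change of 4.71 had a wide interval, 2.67 to 8.30. The 2 other distal regions of E2F3 were at 0.10 and 0.95 and did not pass the adjusted p. In E2F2, an intronic region at chr1:23524868-23525390 was lower, as its promoter was, at -1.12 on the log2 scale (SE 0.276, adjusted p = 0.000249) and a mean signal of 54.4.

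E2F7 had the most distal regions, 7, of which 4 were called higher and 1 lower. In an intron, chr12:77030763-77030944 rose by 1.72 on the log2 scale (SE 0.430, adjusted p = 0.000328) at a mean signal of 22.6. Upstream of the gene, chr12:77072831-77073009 rose by 0.96 (SE 0.351, adjusted p = 0.0181) at a mean signal of 35.7. The 2 other called rises were at 0.59, in the best covered of these regions with a mean signal of 352, and at 1.20, with a mean signal of 15.7. The fall lay 84781 bp upstream, at chr12:77149904-77150796, where it touched a noncoding gene, with a mean signal of 298. It fell by 0.82 on the log2 scale (SE 0.120, adjusted p = 1.21e-10), to a fold change of 0.565. Of the uncalled regions, chr12:76965391-76965744, next to the rise at 1.20, was at -0.57 (SE 0.495, adjusted p = 0.372) at a mean signal of 15.3. The other, chr12:77010501-77011187, was at -0.45 (SE 0.158, adjusted p = 0.0132), short of the fold limit. Of the 4 rises, the intronic one at 1.72 kept its call with either trend removed, while that at 0.96 lost it with the signal trend, that at 0.59 with the GC trend and that at 1.20 with each. The call at 0.59 was also lost on centring on the median of all regions, and those at 0.96 and 1.20 at an adjusted p limit of 0.01.

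The middle 300 bases of this upstream E2F7 region are printed below, since it was the only called fall outside the promoters with a mean signal over 100 normalised reads. The capitals mark a match to the forkhead core TGTTTAC on the other strand, found in 2 of 22 distal windows of the family and in 9.42% of all distal windows. The AP-1 site TGANTCA was in 0 of 22 windows and in 11.07% of all.

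E2F7 upstream region, chr12:77150201-77150500, minus strand: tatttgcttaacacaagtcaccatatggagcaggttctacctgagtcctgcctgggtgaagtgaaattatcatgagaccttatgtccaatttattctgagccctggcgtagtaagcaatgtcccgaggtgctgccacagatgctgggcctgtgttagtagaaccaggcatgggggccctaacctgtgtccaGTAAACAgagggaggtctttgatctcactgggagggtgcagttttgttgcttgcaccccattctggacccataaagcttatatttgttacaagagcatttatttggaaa

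At the DP genes, an intronic region of TFDP2, chr3:142104866-142105595, rose by 0.61 on the log2 scale (SE 0.188, adjusted p = 0.00421), a fold change of 1.53. That call was lost with the GC trend removed. The other distal regions of TFDP2 were at 0.27 and -0.09, and those of TFDP1 at -0.52 (SE 0.221, adjusted p = 0.0459) and -0.01. None of these was called. The single distal regions of E2F1 and E2F6 were at -0.55 (SE 0.255, adjusted p = 0.0664) and -0.30, also uncalled, and that of E2F1 lay in an untranslated exon of the neighbouring gene PXMP4.

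**Figure D4:**
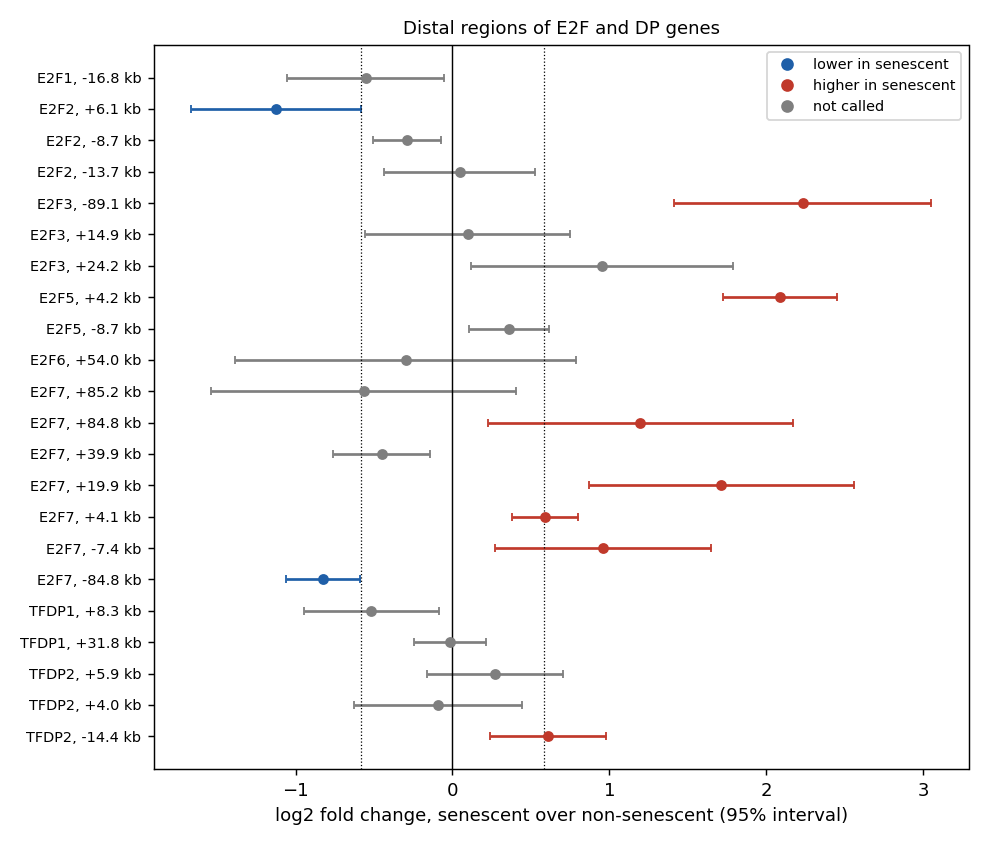
Log2 fold change (x axis, senescent over non-senescent) of the 22 distal regions, each named by its gene and the distance of its middle from the nearest start site in kb, with 95% Wald intervals and dotted lines at a fold change of 1.5. The 7 regions called higher are in red and the 2 called lower in blue, and the values range from -1.12 to 2.23.

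The genes around the family were read from lists of its partners and of its known targets, with the strongest promoter region of each gene. On this measure 3 of the 10 members were lower, since the strongest region of E2F1 was the uncalled one, and 7.02% of 15493 genes were lower and 1.39% higher. Of 32 partners and regulators with a promoter region, 3 were lower and 1 higher, with a median log2 fold change of -0.143, near the -0.135 of all genes. RBL1, which encodes the Rb relative p107, fell by 0.73 on the log2 scale (SE 0.066, adjusted p = 3.73e-26). LIN9, a MuvB subunit, fell by 0.63 (SE 0.114, adjusted p = 3.79e-07), and CCNA2, the gene of cyclin A, fell by 0.60 (SE 0.080, adjusted p = 2.34e-12). The LIN9 and CCNA2 calls were lost with the signal or GC trend removed, on centring on the promoter median and with the fold limit in the Wald test, which also ended the RBL1 call.

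CCNE1, which encodes cyclin E and is both a regulator and a target, was the only gene of either list called higher, at 0.62 on the log2 scale (SE 0.137, adjusted p = 4.32e-05). That call was lost with the GC trend removed and with the fold limit in the Wald test. RB1 itself was at -0.37 (SE 0.072, adjusted p = 2.25e-06) and RBL2, the gene of p130, at 0.20 (SE 0.082, adjusted p = 0.0368). CDKN2A, a gene of cell cycle inhibitors with several start sites, was at -0.38 (SE 0.062, adjusted p = 1.22e-08) in its strongest region, which covered its upstream start sites and not that of the p16 transcript. These passed the adjusted p but not the fold limit. CDK4, the gene of a kinase that releases E2F from Rb, was at 0.00 (SE 0.061, adjusted p = 0.989).

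Of 34 E2F target genes with a promoter region, 5 were lower and 1 higher, with a median of -0.34. PLK1, the gene of a mitotic kinase, fell by 1.13 on the log2 scale (SE 0.107, adjusted p = 4.3e-24), the most of the list, followed by RBL1, which is on both lists. TYMS, the thymidylate synthase gene, fell by 0.66 (SE 0.066, adjusted p = 2.51e-21), a call lost in the same settings as that of CCNA2, while the PLK1 call held in 6 of 6. By the adjusted p alone, 29 of 34 targets were lower and 2 higher, and of the 32 partners 18 were lower and 2 higher, against 39.9% lower and 8.23% higher over all 15493 genes. The lower targets include MKI67, whose negative value was also used to read the direction of the fold changes. The lists share 6 genes, and the partners CCND2 and TFDP3 had no promoter region in the table.

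**Figure D5:**
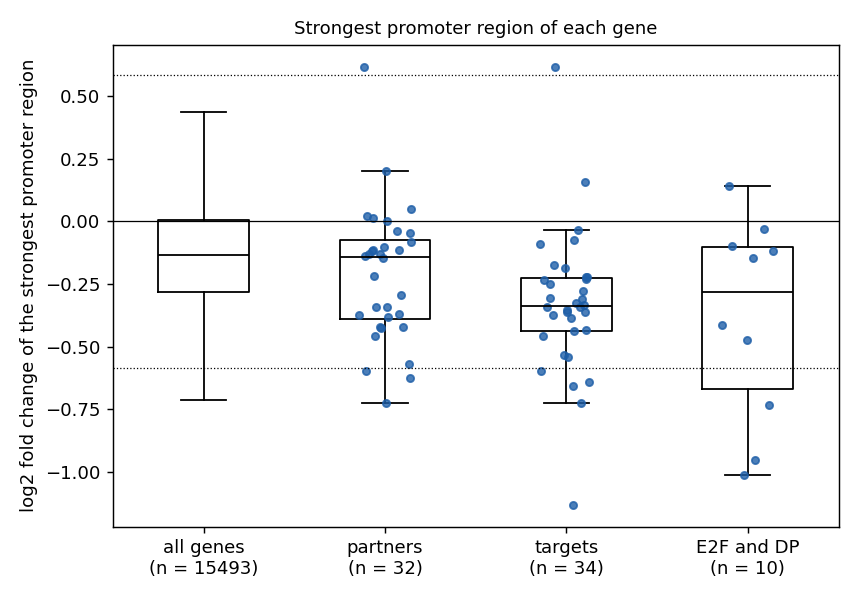
Log2 fold change of the strongest promoter region of each gene (y axis, senescent over non-senescent) for the members, 32 partners and 34 target genes, with each point 1 gene, boxes from the lower to the upper quartile, whiskers to 1.5 times that span and all genes as a box alone. The lines in the boxes are the medians, -0.28 for the members, -0.143 for the partners and -0.34 for the targets, beside -0.135 for all 15493 genes.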

How the data were processed

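ATAC-seq of 3 senescent and 3 non-senescent EndoC-βH3 libraries was used, grouped by the labels. Per the study's methods and the submitters' processing notes, reads were trimmed (Trim Galore), aligned to hg38 and stripped of mitochondrial and duplicate reads by the authors, who then shifted them for the transposase offset, called peaks with MACS2 and compared reads under the merged peaks with DESeq2. The DESeq2 version is not given in the sources used here. The deposited table gives the mean signal (normalised counts over all libraries), the log2 fold change with its SE, the Wald score, and the p-value and adjusted p-value, all from the authors' own model. With no columns for single libraries, every fold change and p here is copied from the authors' comparison, and no test across libraries was added. Alternative calls were recomputed from the deposited fold changes and SEs. The numerator was read as senescent from the study's own labelling and from the negative value, -0.53, at the promoter of the proliferation gene MKI67. MKI67 is also in the list of E2F target genes, so its own fall there is not a separate result. The score equalled the fold change over its SE, and the adjusted p-values equalled a Benjamini-Hochberg adjustment over all 108542 regions.

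Regions were assigned to genes with GENCODE 44, promoter sequences came from RefSeq (GRCh38.p14), and those of E2F5 and E2F8 were not analysed here. Scripts ran in Python 3.11.15 with pandas 2.3.3 and were tested on simulated data. The trend of the fold change on signal or GC content was a running median of 1000 regions on each side. Named were all members, each with its strongest and its called promoter regions, and the called distal regions, for E2F7 up to 2 rises and 2 falls with a mean signal of at least 20. From each list the 3 largest called falls and rises were named. RB1, RBL2, CDKN2A, CDK4, the other E2F7 rises and uncalled regions were named after their values were seen. Members, lists and thresholds were chosen with earlier results of these data known. The concentration of 4-hydroxytamoxifen differs in unit between the labels and the methods and is not given.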

Additional observations from a re-analysis of the deposited data

How the results depend on the processing

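Of 6 alternative thresholds and scalings that could end a call, the lower calls at E2F1 (intron), E2F2 and E2F8 held in 6 and that at E2F7 in 5, lost when the fold limit was put into the Wald test. With a promoter window of 0.5 kb, 3 lower promoter regions were left, since the E2F1 intronic region lay outside it. Without a fold limit, lower calls were 7 of the promoter and 5 of the distal regions of the family, partners had 18 lower and 2 higher, and targets 29 lower and 2 higher, and the shares over all features (34.7% of promoter regions, 18.3% of distal regions and 39.9% of genes lower) rose as well. With the fold limit in the Wald test, the distal regions had 0 lower and 2 higher, the partners 0 lower and 0 higher, and the targets 1 lower and 0 higher. A mean signal of at least 50 left 14 distal regions, 3 of them higher, and a distal limit of 50 kb left 17, 1 of them lower. With the signal trend removed, 4 distal regions, 1 partner and 2 targets were lower. With the GC trend removed, 4 distal regions were higher, 1 partner and 2 targets were lower, and 0 partners and 0 targets higher. With values centred on the median of all promoter regions, an alternative chosen after seeing the data, 1 partner and 2 targets were lower. In all, 60 of 84 counts stayed within 1.5 times. This total includes counts that a setting could not change, such as those of promoter regions under the limit on mean signal, which all of them exceeded. Apart from the setting without a fold limit, shares over all features are not given. A change in the family can thus not be told from one in the whole table. Why counts changed was not tested.

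Some uncalled values near 0 changed sign. On removal of the signal trend, the GC trend and on promoter centring, the E2F1 start region was at 0.020, 0.041 and 0.026 and the E2F3 promoter at 0.072, 0.093 and 0.094. On the signal and GC trends, the E2F2 region at 13740 bp upstream was at -0.042 and -0.057, an E2F3 intronic region at -0.127 and -0.064, and a TFDP1 intronic region at 0.1 and 0.075. E2F4 was at 0.047 on the GC trend and 0.009 on centring, and a weak TFDP2 promoter region at 0.032 on centring.

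No paired analysis was possible because single libraries have no column in the table. For the same reason leaving out a library was not run. The median SE was 0.095 for promoter and 0.227 for distal regions, so weak distal regions are the least certain.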
